A study of Mus musculus with 32 samples.

Results

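Livers of mice homozygous for the deletion of the phenylalanine tRNA gene tRNA-Phe-GAA-2-1 (Phe21) were compared with wild-type livers by ATAC-seq, in which a transposase inserts sequencing adapters where DNA is accessible. The comparison holds 6 of the 32 libraries of the series, chosen by genotype and tissue. They are Phe21 livers 7, 8 and 9 and wild-type livers 1, 3 and 24, the 3 of the 7 wild-type livers in the series that share a table with them. Each library has a value at 401 tRNA loci, of which 201 had a mean normalised count of at least 10 and were tested. All animals were male C57BL/6N mice, which the labels describe as matched for age and litter. The study's mice were 10 weeks old. The knockout line came from embryos edited with a single CRISPR-Cas9 guide that can cut every tRNA-Phe gene, after which separate deletions were bred apart and to homozygosity. The labels place all 3 Phe21 livers and wild-type livers 1 and 3 in batch 1 and wild-type liver 24 in batch 2, without saying what a batch is. They name no pooling of animals.

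Transfer RNAs carry amino acids to the ribosome, where their anticodon reads the codon. Mammalian tRNA genes exist in many copies. Copies with the same anticodon but a different body are called isodecoders, and the numbers in a locus name give the isodecoder and then the copy. RNA polymerase III transcribes them from promoter elements inside the gene, the A box and the B box, and the DNA of an active copy is open. Identical copies give identical tRNA, so the opening of the DNA around each copy is used as a readout of the single gene. tRNA-Phe with the anticodon GAA is the tRNA that reads the phenylalanine codons. The question of the comparison was which loci, within and outside the tRNA-Phe family, differ in the liver of mice without tRNA-Phe-GAA-2-1.

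The 3 isodecoders of the family are shown because they differ from the deleted gene by few bases and share its guide site. The capitals mark the 20 bases matched by the guide, which are followed by an AGG. Each gene is 73 bases long, written 5′ to 3′ and read from GRCm39. tRNA-Phe-GAA-1-1 stands for the 5 copies tRNA-Phe-GAA-1-1 to 1-5, which have the same sequence.
tRNA-Phe-GAA-1-1: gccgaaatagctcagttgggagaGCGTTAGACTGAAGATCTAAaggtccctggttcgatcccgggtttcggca
tRNA-Phe-GAA-2-1: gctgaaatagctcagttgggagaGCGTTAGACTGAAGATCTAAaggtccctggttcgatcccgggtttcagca
tRNA-Phe-GAA-3-1: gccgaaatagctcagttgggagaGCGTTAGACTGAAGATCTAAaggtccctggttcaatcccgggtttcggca

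Counted from 1 at the 5′ end, tRNA-Phe-GAA-2-1 differs from tRNA-Phe-GAA-1-1 by C3T and G70A, positions that pair with each other in the acceptor stem in each sequence. tRNA-Phe-GAA-3-1 differs from tRNA-Phe-GAA-1-1 by G57A, which leaves it without the letters GGTTCGA of the B box that the other 6 genes hold on their own strand. The guide has 7 perfect matches followed by NGG on the chromosomes of GRCm39, and they are the 7 tRNA-Phe genes. On GRCm39 the deleted gene lies at chr19:11985909-11985981 on the plus strand. tRNA-Phe-GAA-1-5 starts 6309 bases before it at chr19:11979600-11979672 on the same strand. tRNA-Phe-GAA-3-1 lies at chr13:22067055-22067127 and tRNA-Phe-GAA-1-1 at chr5:125483119-125483191, each on the minus strand. Since the bodies of the 5 copies of isodecoder 1 are identical, only reads that reach the flanking DNA tell them apart.

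The wild-type livers held between 7895 and 9739 reads over the 401 loci and the Phe21 livers between 11278 and 18575, so the knockout values rest on more reads. Loci without a read numbered 69 to 86 in the Phe21 livers and 62 to 78 in wild type. The reads of wild-type livers 3 and 24, from different batches, differed by less than sampling noise (chi-square per degree of freedom 0.74 over 241 loci, p = 0.999), as did those of Phe21 livers 7 and 8 (0.94 over 232 loci, p = 0.724). The other pairs within a group had 1.15 to 1.22. The labels list these livers as separate samples and they are counted so, and the number of called loci is also given below with each pair taken as 1 sample. The 159 loci with a mean under 5 in livers outside this comparison (the 4 Phe11 livers, which lack tRNA-Phe-GAA-1-1, and wild-type liver 22) took between 2.06% and 2.68% of reads in wild type and between 1.06% and 1.14% in Phe21. The part of this difference in the results at loci with low counts was not tested. tRNA-Arg-TCT-4-1, an arginine tRNA known to be made in the nervous system, had 9, 7 and 6 reads in wild-type liver and 1, 2 and 2 in Phe21 liver, against between 136 and 289 reads per library in Phe21 and wild-type brain. On the normalised scale it kept 15.6% of its wild-type mean in Phe21 liver, and the part of this in other results was not tested. Of hepatocyte genes with a promoter sequence at hand (Alb, Apoa1, Apob, Hnf4a, Cyp2e1 and Tat), 6 of 6 had a liver peak at their start and 0 had a brain peak. Of the neuronal genes Syt1, Rbfox3 and Neurod2, 1 of 3 had a liver peak (Syt1) and 3 a brain peak. Other cell types separated the tissues less cleanly. The Kupffer cell and leukocyte genes Clec4f and Ptprc had a liver peak alone. Of the liver endothelium genes, Kdr had a peak in both tissues and Stab2 in brain alone. Of the stellate cell genes, Lrat had a peak in both and Des in neither. The astrocyte gene Gfap had a peak in neither.

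The deleted locus had few reads in wild-type liver and fewer in Phe21, and many intact loci at this level were lower in Phe21 as well. The normalised count, which is the read count divided by the size factor of the library, was 1.19, 4.20 and 3.42 in wild-type livers 1, 3 and 24. It was 0.602, 0 and 0 in Phe21 livers 7, 8 and 9. All Phe21 livers lay below all wild-type livers, but these values stand for 7 reads in wild type and 1 read in Phe21. The counted window includes DNA on either side of the gene. The knockout kept 8.92% by reads, with a 95% exact binomial counting interval from 0.198% to 69.5%. The log2 difference of normalised counts + 1 was -1.66 (exact two-sided permutation test, p = 0.1, the smallest possible at 3 against 3). The 66 other loci with 4 to 14 reads over the wild-type livers kept a median of 43.3% of the wild-type mean of normalised counts, where the deleted locus kept 6.83%. Of these, 2 kept no more than the deleted locus, and 19 had all Phe21 livers below all wild-type livers. In the 4 Phe11 livers, where tRNA-Phe-GAA-2-1 is intact, the locus had 3, 2, 5 and 6 reads. In brain it had 12, 2 and 9 reads in the wild-type libraries and 2, 0 and 0 in the Phe21 libraries. The deleted locus took between 0.592% and 2.11% of the summed signal of the 7 tRNA-Phe loci in wild-type liver, the lowest share of the 7 in each of the 3 libraries.

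**Figure D1:**
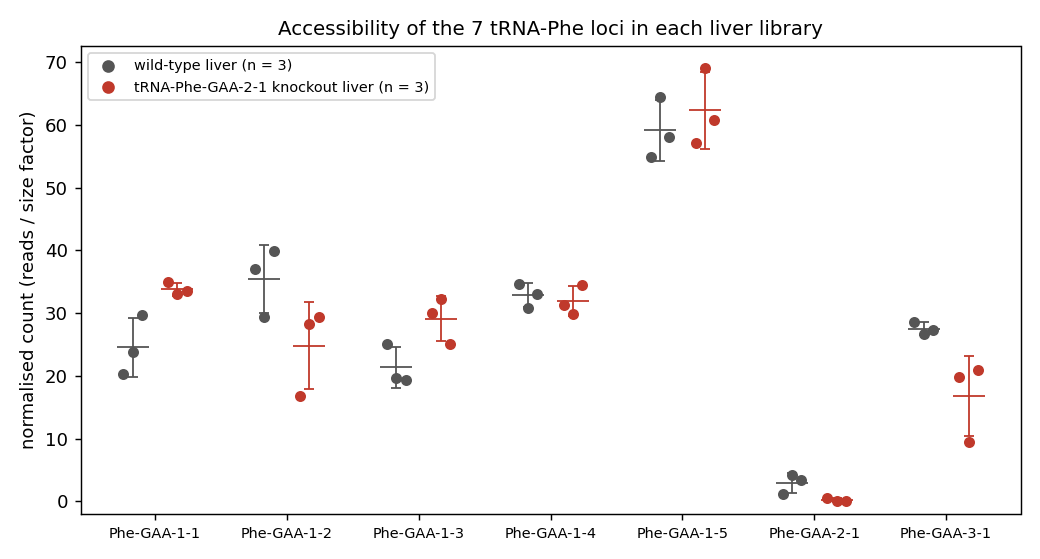
Normalised count (reads divided by the size factor, linear axis) of the 7 tRNA-Phe loci in each wild-type liver (grey, n = 3) and each Phe21 liver (red, n = 3), where points are libraries, bars are means and whiskers are SD. tRNA-Phe-GAA-2-1 lies near 0 in every library, tRNA-Phe-GAA-1-5 is highest in every library, and tRNA-Phe-GAA-3-1 lies below wild type in all 3 Phe21 livers.

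Around the deleted gene, the copy next to it kept its signal. tRNA-Phe-GAA-1-5 measured 54.9, 64.4 and 58.1 in wild type and 57.2, 69.1 and 60.7 in Phe21. The ranges overlapped, and the log2 change was 0.07 ± 0.15 (SE, adjusted p = 0.747 by limma). In these 6 libraries it was the most open tRNA-Phe locus, with between 27.2% and 34.2% of the family's signal in every library. tRNA-Phe-GAA-1-4 overlapped between the groups as well, with 34.6, 30.8 and 33.0 in wild type and 31.3, 29.9 and 34.5 in Phe21.

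The other 4 intact loci had groups that did not overlap, and they lay on both sides of wild type. tRNA-Phe-GAA-3-1 fell. It measured 28.6, 26.6 and 27.4 in wild type and 19.9, 9.43 and 20.9 in Phe21, with a log2 change of -0.76 ± 0.27 (SE, adjusted p = 0.0404 by limma over the 201 loci tested). Phe21 liver 8 was the lowest, and leaving it out gave -0.41 and ended the call. Leaving out wild-type liver 1, 3 or 24 also ended it. So did counting wild-type livers 3 and 24 as 1 sample, TMM factors, limma without trend and edgeR. DESeq2 did not call the locus, but gave a result for only 23 of the 27 loci called by limma. The mean of tRNA-Phe-GAA-3-1 kept it out of the fit over loci with at least 30. In bulk tissue, fewer nuclei with an open locus and less opening per nucleus cannot be told apart, here or at the loci below. tRNA-Phe-GAA-1-2 measured 37.0, 29.4 and 39.9 in wild type and 16.9, 28.3 and 29.3 in Phe21, with an adjusted p of 0.0925 by limma. Its highest Phe21 value lay below its lowest wild-type value by less than the worth of 1 read.

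tRNA-Phe-GAA-1-1 measured 20.3, 23.8 and 29.6 in wild type and 34.9, 33.0 and 33.5 in Phe21 (log2 change 0.46 ± 0.22 SE, adjusted p = 0.158 by limma). tRNA-Phe-GAA-1-3 measured 25.1, 19.6 and 19.4 in wild type and 30.1, 32.2 and 25.1 in Phe21 (log2 change 0.43 ± 0.24 SE, adjusted p = 0.208 by limma). Neither passed the threshold, and at tRNA-Phe-GAA-1-3 less than 1 read separated the groups. Groups did not overlap at 31.3% of all loci tested. The 5 identical copies of isodecoder 1 together came to 173.3 ± 6.16 in wild type and 182.0 ± 11.1 in Phe21 (SD, n = 3), which is 105% of wild type. With tRNA-Phe-GAA-3-1 added, the 6 intact loci came to 200.8 ± 6.41 and 198.7 ± 7.49 (SD, n = 3), a difference below the spread between replicates. Under TMM factors the sum was 105% of wild type, a shift in the other direction. With the deleted locus included it was 103.2% under TMM factors, and the groups overlapped.

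Over all loci, 27 of 201 were called at an adjusted p under 0.05 by limma, which is 13.4%. Of these, 17 were higher in Phe21 (8.46% of loci tested) and 10 lower (4.98%). This excess of higher calls turned round after cyclic loess (10 higher and 20 lower), with no filter on low values (18 and 25), by limma without trend (3 and 5) and without Phe21 liver 9 (8 and 10). The median log2 change of the 201 loci was 0.10, with 123 above 0 and 78 below. Groups did not overlap at 26 of the 27 called loci, tRNA-Thr-CGT-1-1 being the exception, beside 31.3% of all loci tested. The calls were made on these same libraries, so this separation is a description. The raised loci were from 1.31 to 2.00 times the wild-type mean and the lowered loci from 0.369 to 0.691 times. With wild-type livers 3 and 24 as 1 sample 20 loci were called, each among the 27. With Phe21 livers 7 and 8 as 1 sample too there were 12, also among the 27. Of the 27 calls, 12 were kept in each of the 6 fits that left out 1 library. The calls at tRNA-Asp-GTC-1-5, tRNA-Ala-TGC-3-1, tRNA-Ser-TGA-1-1, tRNA-Ile-AAT-1-4 and tRNA-Ser-GCT-3-1 were kept under every alternative tried. Of the 27, limma without trend kept 8. DESeq2 gave a result for 23 of them and kept 12.

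Raised loci had a median wild-type level of 48.6 (22.6 to 191.6) and lowered loci of 40.4 (17.6 to 125.5), beside 40.2 over all loci tested. With the loci split into 4 classes by the mean over all 6 libraries, which the change itself moves, among the 51 loci of the lowest class (10.1 to 23.3), 0 were called higher and 4 lower. In the 50 loci of the highest class (68.3 to 237.1) 8 were called higher and 2 lower. The median log2 change was 0.08 in the lowest class and 0.13 in the highest. The share of reads at quiet loci was smaller in Phe21, and its part in these counts was not tested.

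**Figure D2:**
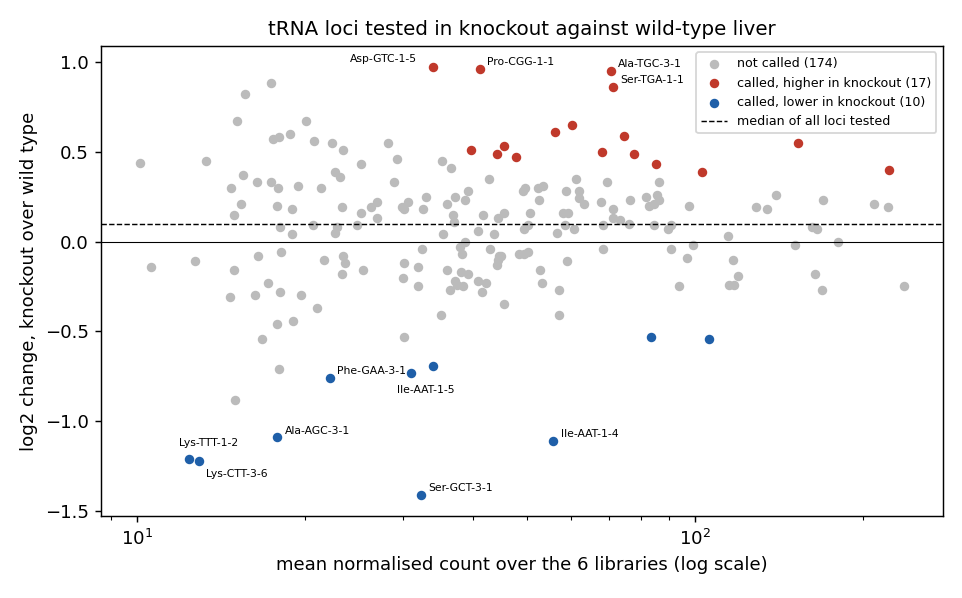
Log2 change of Phe21 over wild-type liver against the mean normalised count over the 6 libraries (log axis) for the 201 loci tested, with 17 loci called higher in red, 10 called lower in blue and 174 not called in grey. The dashed line is the median of all loci tested at 0.10, and 4 of the 10 lowered loci have mean levels of 23.3 or less.

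Raised loci carried several amino acids, with aspartate the most frequent. tRNA-Asp-GTC-1-5, a copy of the main aspartate tRNA, measured 22.7, 22.4 and 22.8 in wild type and 46.3, 46.4 and 42.9 in Phe21 (log2 change 0.97 ± 0.20 SE, adjusted p = 9.41e-05 by limma). The libraries of each group lay close together, though the wild-type values rest on 55 reads in all and the Phe21 values on 177. tRNA-Pro-CGG-1-1, a proline tRNA, measured 17.9, 35 and 31.9 in wild type and 57.8, 55.0 and 49.2 in Phe21 (log2 change 0.96, adjusted p = 2.46e-05 by limma). Wild-type liver 1 was the low library there. Without it the locus was still called, at 0.67. tRNA-Ala-TGC-3-1 measured 57.3, 35 and 53.6 in wild type and 90.9, 94.3 and 93.2 in Phe21 (log2 change 0.95, adjusted p = 3.36e-08 by limma). It is the only locus of its isodecoder in the table.

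tRNA-Ser-TGA-1-1, a serine tRNA that is also the only locus of its isodecoder, measured 39.4, 50.4 and 62.7 in wild type and 82.5, 86.4 and 106.8 in Phe21 (adjusted p = 4.6e-07 by limma). tRNA-His-GTG-2-1, a copy of the histidine tRNA, measured 47.7, 42.0 and 49.0 in wild type and 58.4, 69.9 and 94.2 in Phe21. Phe21 liver 9 was the highest, and the call was lost without it. tRNA-Val-AAC-5-1, for valine, measured 41.8, 40.6 and 50.1 in wild type and 74.0, 62.1 and 68.1 in Phe21. tRNA-Thr-CGT-2-1, for threonine, measured 53.7, 64.4 and 59.3 in wild type and 100.5, 77.8 and 91.1 in Phe21. The calls at these last 2 loci were kept without any 1 library and lost by limma without trend, and that at tRNA-Val-AAC-5-1 also by DESeq2.

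tRNA-Asn-GTT-3-7, for asparagine and among the most open loci of the liver, measured 121.7, 120.4 and 129.9 in wild type and 168.5, 198.7 and 178.0 in Phe21 (log2 change 0.55 ± 0.11 SE, adjusted p = 4.64e-05 by limma). tRNA-Pro-AGG-1-6 measured 31.0, 37.8 and 42.2 in wild type and 42.7, 56.6 and 62.8 in Phe21. tRNA-Asp-GTC-1-13 measured 53.7, 58.8 and 55.8 in wild type and 72.2, 77.8 and 91.1 in Phe21. tRNA-Pro-TGG-2-2 measured 31.0, 28 and 38.8 in wild type and 48.8, 44.0 and 47.1 in Phe21. The call at tRNA-Asp-GTC-1-13 was lost without Phe21 liver 9, and the calls at both proline loci were lost in 4 of the 6 fits without 1 library. The other raised loci, with log2 changes from 0.39 to 0.49, were tRNA-Trp-CCA-3-1, tRNA-Ala-TGC-4-1, tRNA-Asp-GTC-2-1, tRNA-Asp-GTC-1-7, tRNA-Tyr-GTA-3-2 and tRNA-Thr-CGT-1-1. The call at tRNA-Tyr-GTA-3-2 was kept without any 1 library. It was lost in 5 of the 6 such fits at tRNA-Ala-TGC-4-1, in 3 at tRNA-Asp-GTC-2-1, tRNA-Asp-GTC-1-7 and tRNA-Thr-CGT-1-1, and in 2 at tRNA-Trp-CCA-3-1.

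**Figure D3:**
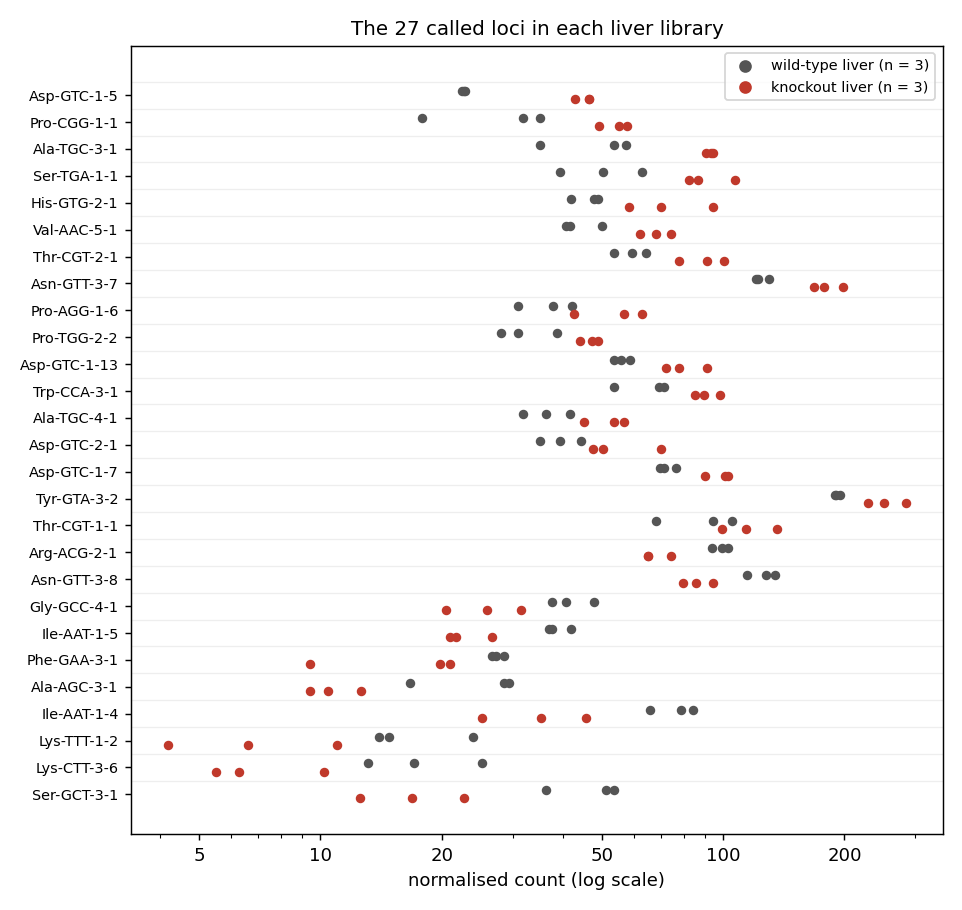
Normalised count (log axis) of the 27 called loci in each wild-type liver (grey, n = 3) and each Phe21 liver (red, n = 3), ordered by log2 change. Phe21 and wild-type points are separate at every locus except tRNA-Thr-CGT-1-1, and the 2 lysine loci near the bottom lie at the lowest levels. The loci were called on these same libraries.

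Lowered loci had log2 changes from -1.41 to -0.53, several of them from low levels. tRNA-Ser-GCT-3-1, a serine tRNA and the only locus of its isodecoder, measured 53.7, 36.4 and 51.3 in wild type and 16.9, 22.8 and 12.6 in Phe21 (log2 change -1.41 ± 0.22 SE, adjusted p = 8.42e-08 by limma). It kept 36.9% of the wild-type mean. tRNA-Ile-AAT-1-4, for isoleucine, measured 65.6, 84.0 and 78.6 in wild type and 45.7, 35.4 and 25.1 in Phe21 (log2 change -1.11 ± 0.16 SE, adjusted p = 1.18e-08 by limma). tRNA-Ile-AAT-1-5, another copy of the same isodecoder, measured 37.0, 42.0 and 37.6 in wild type and 21.7, 26.7 and 20.9 in Phe21, and its call was lost without wild-type liver 3 and by DESeq2.

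tRNA-Ala-AGC-3-1, for alanine, measured 16.7, 29.4 and 28.5 in wild type and 12.6, 9.43 and 10.5 in Phe21. Its call was lost without wild-type liver 3 or 24 and with wild-type livers 3 and 24 as 1 sample. DESeq2, which gave no result for some called loci, did not call it. tRNA-Lys-CTT-3-6 measured 13.1, 25.2 and 17.1 in wild type and 10.2, 5.50 and 6.28 in Phe21. tRNA-Lys-TTT-1-2 measured 23.9, 14 and 14.8 in wild type and 6.62, 11 and 4.19 in Phe21. Both lysine loci, with log2 changes of -1.22 and -1.21, had few reads, and their calls were lost in 4 and in 5 of the 6 fits without 1 library.

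The remaining lowered loci changed by less. tRNA-Gly-GCC-4-1, for glycine, measured 47.7, 40.6 and 37.6 in wild type and 20.5, 25.9 and 31.4 in Phe21 (log2 change -0.69). tRNA-Asn-GTT-3-8 measured 114.5, 134.4 and 127.6 in wild type and 85.5, 79.3 and 94.2 in Phe21 (log2 change -0.54 ± 0.12 SE, adjusted p = 0.000452 by limma). tRNA-Arg-ACG-2-1, for arginine, measured 102.6, 93.8 and 99.1 in wild type and 74.0, 65.2 and 64.9 in Phe21 (log2 change -0.53 ± 0.13 SE, adjusted p = 0.0014 by limma). The calls at the asparagine and arginine loci were kept without any 1 library, and both were lost by limma without trend. The glycine call was lost without Phe21 liver 7, by limma without trend, by DESeq2 and with both pairs of livers as 1 sample, and the last of these also ended the asparagine call.

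Differences between copies of 1 isodecoder were not tested, and their values are a description. The asparagine isodecoder tRNA-Asn-GTT-3 has 9 loci in the table, of which 6 were tested. Its copies 3-7 and 3-8 had nearly the same wild-type level, with means of 124.0 and 125.5, and in Phe21 the first rose to 181.7 and the second fell to 86.3. The summed signal of the 9 copies was 105% of wild type. For tRNA-Ile-AAT-1, with 7 of 8 loci tested, 2 copies fell, the log2 changes of the other 5 ran from -0.20 to 0.58, and the sum was 80.9% of wild type. For tRNA-Asp-GTC-1, with 7 of 13 loci tested, 3 copies rose and the other 4 had log2 changes from 0.08 to 0.33, none called. The sum over its 13 copies was 249.4, 273.0 and 282.6 in wild type and 337.6, 359.8 and 353.8 in Phe21.

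Grouped by amino acid, the aspartate loci had the most calls in 1 direction. Of 16 aspartate loci 8 were tested, 4 rose, 0 fell, and 8 of 8 had a log2 change above 0 with a median of 0.38. Over all loci tested 8.46% were called higher, 123 of 201 were above 0 and the median was 0.10. Of the 4 calls, that at tRNA-Asp-GTC-1-5 was kept under every alternative. The other 3 were lost by DESeq2, by limma without trend and after cyclic loess, and that at tRNA-Asp-GTC-2-1 also by edgeR and under equal library totals. Their sum was 289.9, 310.8 and 329.3 in wild type and 389.4, 410.8 and 427.1 in Phe21, or 132% of wild type. The groups did not overlap, nor did they under TMM factors (139%) or equal library totals (128%). The proline, tryptophan and initiator methionine sums did not overlap under any of these scalings either. On the main scale the cysteine, glutamine, glycine and leucine sums did not overlap as well. Of the tryptophan loci 5 of 8 were tested, 1 rose (tRNA-Trp-CCA-3-1), and the median was 0.45. Their sum was 122% of wild type without overlap.

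The initiator methionine loci, whose tRNA starts translation, had 5 of 9 tested, 0 called and a median of 0.25. Their sum was 241.0, 218.4 and 237.0 in wild type and 269.0, 267.9 and 269.0 in Phe21. The counts that follow stand beside 8.46% called higher and 4.98% called lower over all loci. Proline had 3 loci called higher of 12 tested with a median of 0.07, and threonine had 2 of 10 with a median of 0.19. Lysine had 2 lower of 13 with a median of 0.04, and isoleucine had 2 lower of 9 with a median of 0.20. Alanine had 2 higher and 1 lower of 11, while serine, of 16, and asparagine, of 6, had 1 call in each direction. Glycine had 1 lower of 10 and the lowest median of a group with more than 1 locus tested, -0.18. Its sum was 86.6% of wild type without overlap, but 91.6% with overlap under TMM factors. No locus was called among the 6 cysteine, 7 glutamine, 11 glutamate, 19 leucine or 5 elongator methionine loci tested, or at the selenocysteine locus. The medians of the alanine, asparagine, cysteine, glutamine, glutamate, lysine, methionine, proline and phenylalanine groups lay on different sides of 0 under different scalings.

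**Figure D4:**
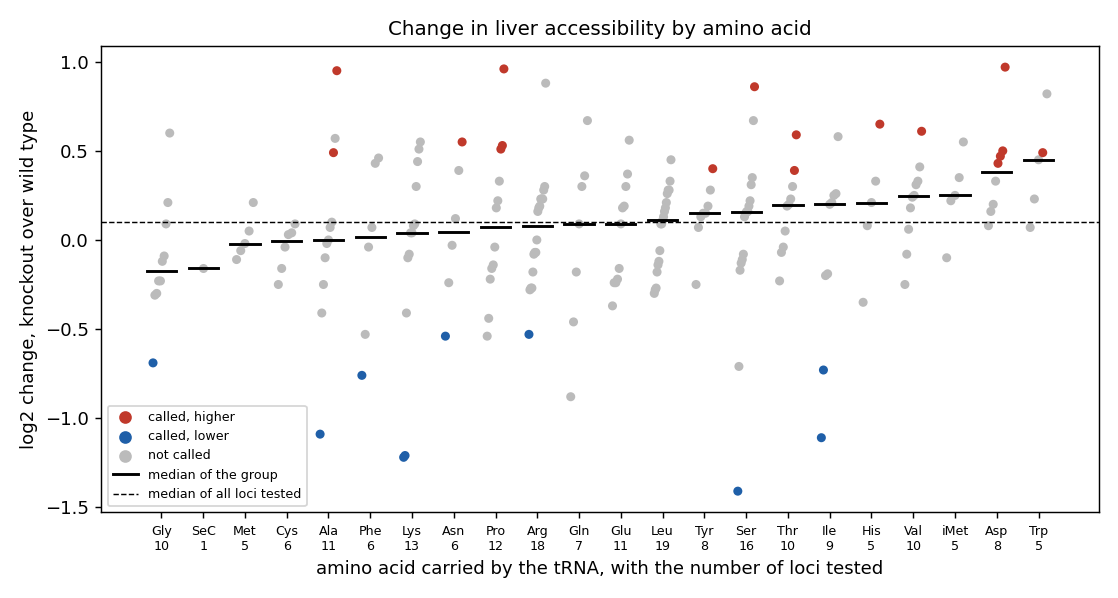
Log2 change of Phe21 over wild-type liver for each of the 201 loci tested, grouped by the amino acid of the tRNA, with the number of loci under each name, called loci in red (higher) or blue (lower), the group median as a bar and the median of all loci tested (0.10) as a dashed line. All 8 aspartate loci lie above 0, and glycine has the lowest median of the groups with more than 1 locus, at -0.18.

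Brain libraries of the same genotypes give the change of the same loci in another tissue. In Phe21 brain 0 of 253 loci were called by limma, with 43 at an unadjusted p under 0.05. A test of the difference between the 2 changes, by edgeR's quasi-likelihood test on whole reads, called 23 of 242 loci, or 9.50%. Without Phe21 liver 8 it called 12, and without wild-type liver 1, 3 or 24 or Phe21 liver 9 between 13 and 15. It uses the same liver libraries that chose the 27 loci, so the values at these loci are a description. tRNA-Ser-GCT-3-1 had a log2 change of -1.41 in liver and -0.04 in brain, where it measured 98.4, 131.6 and 98.8 in wild type and 101.8, 105.0 and 110.2 in Phe21. tRNA-Asp-GTC-1-5 had 0.97 in liver and -0.03 in brain. tRNA-Val-AAC-5-1 had 0.61 and -0.27, and tRNA-Asn-GTT-3-8 had -0.54 and 0.17. These 4 loci changed in liver and had ranges in brain that overlapped or, for tRNA-Asn-GTT-3-8, lay the other way.

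Other loci had the same sign in both tissues with a smaller change in brain. Of the called loci tested in brain, 13 of 17 raised and 7 of 9 lowered ones shared the sign. tRNA-Ile-AAT-1-4 measured 143.2, 125.8 and 138.1 in wild-type brain and 101.8, 110.5 and 107.5 in Phe21 brain, a log2 change of -0.34 beside -1.11 in liver. tRNA-Ala-TGC-3-1 had 0.23 in brain beside 0.95 in liver, and tRNA-Ser-TGA-1-1 had 0.31 beside 0.86. Within the tRNA-Phe family, tRNA-Phe-GAA-1-2 was lower than wild type in liver (-0.53) and higher in brain (0.32), a difference of -0.92 (adjusted p = 0.0108 by edgeR). Neither change alone passed its threshold. tRNA-Phe-GAA-3-1 had -0.76 in liver and -0.46 in brain, and that difference did not pass (adjusted p = 0.778 by edgeR).

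**Figure D5:**
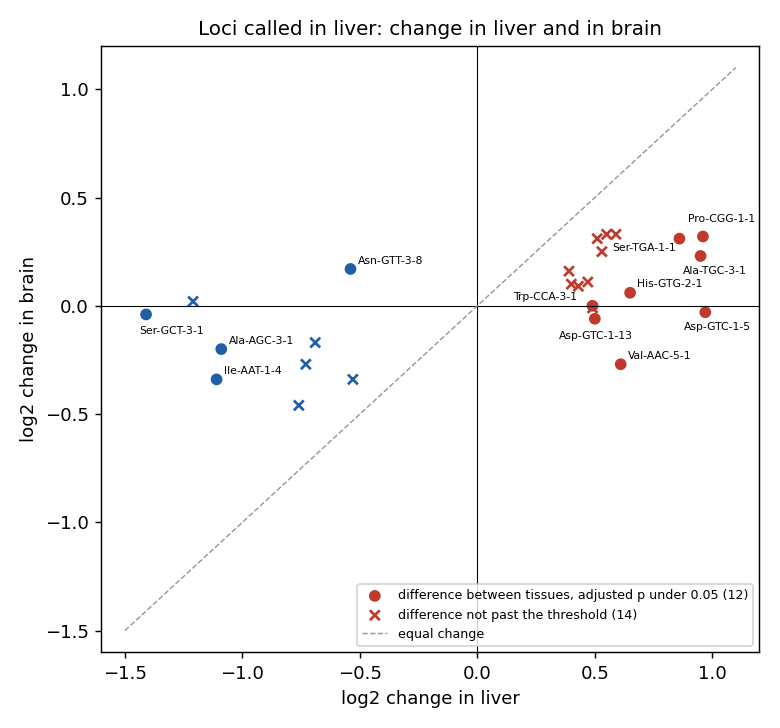
Log2 change in Phe21 brain against the log2 change in Phe21 liver for the 26 loci called in liver that were also tested in brain, raised in liver in red and lowered in blue, with the dashed line marking equal change. Filled points (12) have an adjusted p under 0.05 for the difference between tissues by edgeR and crosses (14) do not, and every point lies on the side of the line where the brain change is smaller in size or opposite.

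Phe11 livers, which lack tRNA-Phe-GAA-1-1, give a second set of livers beside the same 3 Phe21 libraries. Over all loci, 49 of 214 differed between the 2 knockouts by edgeR's quasi-likelihood test, or 22.9%, with 25 higher in Phe21 and 24 lower. All Phe21 livers are from batch 1 and 2 of the 4 Phe11 livers from batch 2. Against the Phe11 livers of batch 1 alone 25 loci differed, 19 higher and 6 lower, and 28 differed at a mean of at least 30. tRNA-Phe-GAA-1-1, the gene deleted in Phe11, had values of 4.07, 4.06, 6.95 and 1.63 in the Phe11 livers and of 42.7, 39.9 and 39.7 in the Phe21 livers on a scale set jointly for these 7 libraries. It was higher in Phe21 by 3.46 on the log2 scale (adjusted p = 3.01e-24 by edgeR). On this scale, which differs from that of the values above, the Phe11 livers stood at 46.1, 62.2, 42.9 and 42.4 at tRNA-Asp-GTC-1-5 and the Phe21 livers at 56.7, 56.0 and 50.9. The difference did not pass the threshold (log2 difference 0.22, adjusted p = 0.361 by edgeR). At tRNA-Ser-GCT-3-1 the Phe11 livers stood at 33.9, 37.9, 32.4 and 31.5 and the Phe21 livers at 20.6, 27.5 and 14.9, and Phe21 was lower by edgeR with a log2 difference of -0.64 and an adjusted p of 0.0258. At tRNA-Ile-AAT-1-4 the Phe11 livers stood at 74.5, 125.8, 120.5 and 88.6 and the Phe21 livers at 55.9, 42.7 and 29.8, and the log2 difference was -1.16 (adjusted p = 5.12e-13 by edgeR). The largest differences at loci called in Phe21 were at tRNA-Ala-TGC-4-1 and tRNA-Asp-GTC-1-7, with log2 differences of 2.89 and 2.74. The Phe11 livers had between 6.95 and 12.2 at the first and between 15.2 and 24.4 at the second, where the Phe21 livers had between 53.3 and 68.4 and between 110.4 and 122.5. On the scale of the liver comparison the wild-type means were 36.7 at tRNA-Ala-TGC-4-1 and 72.4 at tRNA-Asp-GTC-1-7 and the Phe21 means 51.7 and 98.1, so Phe21 stood much closer to wild type than to Phe11 at both.

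Liver peaks gave another view of the same genes. The authors' consensus list for Phe21 and wild-type liver holds 108912 peaks with a median width of 351 bases, on GRCm38.p6. Of 403 RefSeq tRNA genes 190, or 47.1%, lay in a liver peak. Of the 7 tRNA-Phe genes 6 did. The exception was n-TFgaa2 at chr19:12008545-12008617, which was matched to tRNA-Phe-GAA-2-1 because it follows the other tRNA-Phe gene of its chromosome by the same 6309 bases. It lay in no brain peak either. Its neighbour n-TFgaa6, matched to tRNA-Phe-GAA-1-5, lay in the liver peak chr19:12002123-12002662. The consensus list covers both genotypes and the count of the gene was low in wild type, so the missing peak is no measure of the deletion.

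The authors listed 15644 peaks that passed their own comparison, beside 108912 in the consensus list. Of the listed peaks 50.8% had a higher mean in Phe21, and 28 hold a tRNA gene. These 28 hold 34 tRNA genes, beside 190 that lay in a liver peak, and no tRNA-Phe gene. By the authors' mean log2 concentrations, 23 of the 28 were higher in Phe21 and 5 lower, a description of a list chosen by their test. The peaks holding aspartate genes were all higher in Phe21, with the authors' mean at 7.05 against 6.11 in wild type for chr13:21940215-21940639, 6.98 against 6.39 for chr5:125408764-125409332, and 7.94 against 7.49 for chr10:91181110-91182352, which also holds a tryptophan gene. The 5 lower peaks held genes for alanine (2), serine (2) and isoleucine (1). Of these, chr13:23299092-23299290 had an authors' mean of 0.48 in Phe21 and 3.73 in wild type. RefSeq symbols were not matched to the numbered loci outside the tRNA-Phe family, so a peak cannot be set against a single locus there.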

How the data were processed

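According to their methods, the authors aligned ATAC-seq reads to GRCm38.p6 with Bowtie2 2.4.1, removed duplicates with Picard 2.23.8, kept short nucleosome-free fragments and counted them with featureCounts 2.0.0 over each tRNA gene and its flanks. The deposited signal is the number of reads after division by the authors by 1 DESeq2 size factor per library. Peaks were called by the authors with Genrich 0.6 and compared with DiffBind 3.0.8. Their deposited log2 concentrations are group means, listed only for peaks that passed their test, and the knockout column is named Phe11 in the header. The score column of the deposited peak lists was not used, nor were the authors' folds and p-values.

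Whole reads were recovered from the steps between low values, and 100% of values came out whole within 0.1 of a read. Loci with a mean of at least 10 were tested by limma 3.58.1 (eBayes with trend, two-sided) on log2(normalised count + 1), with Benjamini-Hochberg adjustment over the loci tested and a threshold of 0.05. Differences between tissues and between knockouts were tested by edgeR 4.0.16 (glmQLFTest) on recovered reads with median-of-ratios size factors, since the tables were normalised separately. Fold changes on this log2 scale understate changes at low loci. Intervals cover counting error only. The labels do not say that replicates are separate animals, so p-values measure the spread between these libraries. Every called locus and every tRNA-Phe locus is named, with a value in each library for the 10 largest changes in each direction (tRNA-Asp-GTC-1-13 was added after its values were seen). Members, lists and the limit of 5 for quiet loci were chosen with earlier results of these data known. The fits were checked on simulated counts. Alternatives were other pseudocounts, filters, scalings and tools (DESeq2 1.42.0) and leaving out each library. Added after seeing the data was counting as 1 sample the pair of libraries in each group that differed least (chi-square test over loci with at least 10 reads in the pair). tRNA-Phe sequences and the guide search are from GRCm39, peaks and RefSeq genes from GRCm38.p6, and no coordinates were converted.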

Additional observations from a re-analysis of the deposited data

Results flagged for a closer look

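At 12 of the 27 called loci and at 1 other tRNA-Phe locus the log2 change in Phe21 differed between liver and brain at an adjusted p under 0.05 by edgeR's quasi-likelihood test of the difference (3 libraries per genotype and tissue). Over all loci 23 of 242 differed, or 9.50%, and 12 without Phe21 liver 8. The difference, liver minus brain, was positive at 8 loci. It was 1.03 at tRNA-Asp-GTC-1-5, 0.90 at tRNA-Val-AAC-5-1, 0.68 at tRNA-Ala-TGC-3-1 and 0.65 at tRNA-Pro-CGG-1-1. It was 0.56 at tRNA-Asp-GTC-1-13, 0.55 at tRNA-His-GTG-2-1, 0.50 at tRNA-Ser-TGA-1-1 and 0.48 at tRNA-Trp-CCA-3-1. It was negative at 5 loci, with -1.35 at tRNA-Ser-GCT-3-1, -0.94 at tRNA-Ala-AGC-3-1, -0.92 at tRNA-Phe-GAA-1-2, -0.72 at tRNA-Asn-GTT-3-8 and -0.67 at tRNA-Ile-AAT-1-4. All but tRNA-Phe-GAA-1-2 were named because they were called in these liver libraries. With 3 libraries per group, no library was tested as standing apart.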

How the results depend on the processing

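The liver count of 27 called loci was between 18 and 36 when 1 library was left out, 43 with no filter on low values, 8 by limma without trend (46 at an unadjusted p under 0.05) and 12 by DESeq2. The split of higher and lower calls moved with the scaling, from 17 and 10 to 28 and 9 under TMM factors, 14 and 13 under equal library totals and 10 and 20 after cyclic loess. It was 18 and 25 with no filter, 15 and 6 at a mean of at least 30, 3 and 5 without trend and 8 and 4 by DESeq2. It was 8 and 10 without Phe21 liver 9, 11 and 8 without Phe21 liver 8, 15 and 5 without wild-type liver 3, and 16 and 6 without wild-type liver 24, which leaves batch 1 alone. With wild-type livers 3 and 24 as 1 sample, a setting chosen after seeing the data, it was 14 and 6. With Phe21 livers 7 and 8 as 1 sample as well, 12 loci were called, 9 higher and 3 lower. Among the calls lost then were tRNA-Phe-GAA-3-1, both lysine loci, tRNA-Tyr-GTA-3-2 and tRNA-Asn-GTT-3-8. No called locus changed sign under any alternative that gave it a result. DESeq2 and the filter of at least 30 each gave one for 23 of the 27.

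The log2 difference at tRNA-Phe-GAA-2-1 was between -2.03 and -1.41 without 1 library (exact permutation p of 0.1 or 0.2), -1.51 with both pairs as 1 sample (exact permutation p = 0.333, the smallest possible at 2 against 2), -3.81 with a pseudocount of 0.1 and -0.34 with 10. Without a filter its adjusted p by limma was 0.0427. The sum over the 6 intact tRNA-Phe loci was 105% of wild type under TMM factors and between 97.5% and 101.1% without 1 library. tRNA-Phe-GAA-1-4, at -0.04, was 0.04 under TMM factors and between -0.10 and 0.0043 without 1 library, highest without Phe21 liver 8. tRNA-Phe-GAA-1-5, at 0.07, was -0.07 after cyclic loess and between -0.0021 and 0.14 without 1 library, lowest without Phe21 liver 8. tRNA-Phe-GAA-1-2 passed after cyclic loess alone.

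Loci differing between tissues numbered 23, and between 12 and 24 without 1 of the 12 libraries (brain libraries and wild-type livers 1 and 3 added after seeing the data), with 12 without Phe21 liver 8, 13 without wild-type liver 1, 14 without wild-type liver 3 and 15 without Phe21 liver 9 or wild-type liver 24. With a replicate block over the numbers that occur in both tissues there were 16, the number also found with both pairs as 1 sample. Across 242 loci the deviations of same-numbered libraries correlated at 0.09, 0.11 and 0.13 in Phe21, where differently numbered ones had -0.11 to -0.02, and at -0.08 and -0.07 in wild type. Not every pair was over 0.1, so the numbers were not taken as pairs. Within liver the genotypes share no number. Loci differing between Phe21 and Phe11 livers numbered 49, with 40 to 46 without 1 Phe21 liver, 28 at a mean of at least 30 and 25 against the Phe11 livers of batch 1 alone. The causes of these differences between settings were not tested. With a median of 7 to 15 reads per locus and library, small changes at low loci were not detectable.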
